A study of Caenorhabditis elegans with 2 samples.

Results

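The nuclear genes atp-1, atp-2, atp-3, atp-4 and atp-5 of Caenorhabditis elegans encode subunits of mitochondrial ATP synthase, and are described here by the binding regions of the protein SNPC-1.1 around their starts. The 5 genes were chosen by name, out of 19985 protein-coding genes in the annotation, with the signal and rank of their regions in these data already known. No test was therefore run on them, and their values are a description. ChIP-seq was done on 2 biological replicates of whole young adult hermaphrodites. Both were of strain YL482, a transgenic line that stably expresses SNPC-1.1 (C06A8.2) with GFP and FLAG at its C terminus, and the description in the labels says that an antibody to GFP was used, while another field of the labels names snpc-1.1 as the antibody. The labels put both replicates in 1 group with no second genotype, stage or treatment. The whole animal was used, so regions bound in different tissues cannot be told apart. The control library that the labels name as possible was not analysed here.

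ATP synthase is the enzyme of the mitochondrial inner membrane that makes ATP from ADP and phosphate while protons flow back into the matrix. Its head, F1, carries the catalytic sites on the beta subunits, which alternate with alpha subunits. A ring of c subunits in the membrane turns with the gamma subunit inside the head, and a peripheral stalk, which includes OSCP, subunit b, subunit d and coupling factor 6, keeps the head from turning along. Nearly all subunits are encoded in the nucleus, and reduced expression of atp-3 in worm larvae is known to lengthen life. SNPC-1.1 belongs to the worm's SNAPc family, and SNAPc is a complex that binds promoters of small nuclear RNA genes. Many worm mRNAs receive a spliced leader in trans. The annotated 5′ end of such a gene can be the acceptor site, directly after an AG, and not the point where transcription began. It can also lie farther upstream, so an AG at the gene start does not sort all genes by trans-splicing.

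SNPC-1.1 regions lay at the starts of 4 of the 5 genes in the authors' list of 1500 reproducible regions. A gene was counted where the summit of a region was within 500 bp of its annotated 5′ end. atp-1, atp-2, atp-3 and atp-5 met this and atp-4 did not, while 4.25% of all protein-coding genes did. In the longer list of 30000 regions called on the pooled replicates all 5 genes had a region, against 37.7% of all protein-coding genes. The reproducible regions were exactly the 1500 highest of the pooled list, and their signal ran down to 58.8. The signal is the authors' own score per region, on a scale that the sources used here do not give, so it is used only to order regions within a list. The lists give no read totals, and the depth behind each value is unknown.

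The sequence under the summits is shown for atp-2, Y82E9BR.3 and atp-5, on the strand of the gene. It runs 60 bases on each side of the reproducible summit and comes from the RefSeq genome of the same build (ce11, WBcel235). The windows of atp-1, atp-3 and R04F11.2, a gene for subunit e, are also at reproducible summits and are not printed. atp-2 (chrIII:5228098-5228218, + strand) and Y82E9BR.3, a gene for the c subunit (chrIII:1418876-1418996, + strand), are set beside each other because they hold the same run of 14 bases, in capitals. For atp-5 (chrV:11124058-11124178, - strand) the capitals mark the only match at these genes to the leading words described further on.
atp-2: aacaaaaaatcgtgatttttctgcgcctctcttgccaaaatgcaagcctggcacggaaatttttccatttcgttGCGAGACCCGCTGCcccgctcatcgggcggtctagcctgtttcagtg
Y82E9BR.3: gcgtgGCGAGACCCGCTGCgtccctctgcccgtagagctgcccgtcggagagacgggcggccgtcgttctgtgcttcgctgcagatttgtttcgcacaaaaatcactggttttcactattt
atp-5: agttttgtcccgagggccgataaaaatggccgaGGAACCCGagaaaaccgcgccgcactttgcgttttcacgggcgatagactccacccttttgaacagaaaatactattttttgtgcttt
The last 30 bases before the annotated starts of atp-2 (chrIII:5228387-5228416, + strand) and atp-5 (chrV:11123868-11123897, - strand), and the whole gap of 95 bases between alh-4 and atp-4 (chrV:6427113-6427207, - strand), are shown because each ends in AG, in capitals, the pair of bases that stands before a spliced-leader acceptor.
atp-2 start: ttatacaatccaaataaattatgttttcAG
atp-5 start: aataaggttaaaacatcacaatttttatAG
atp-4 gap: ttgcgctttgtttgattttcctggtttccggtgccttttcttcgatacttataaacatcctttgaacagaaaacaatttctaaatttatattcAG
These 3 starts thus directly follow an AG, and those of atp-1 and atp-3 do not.

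atp-1 (WBGene00010419, chromosome I, 12652277 to 12654655, + strand) encodes the alpha subunit of the head. Its region had a signal of 42.5 in replicate 1, where it was 544th of 29523, and 58.1 in replicate 2, where it was 669th of 26195. In the pooled and reproducible lists it had 97.1 and was 585th. It was the highest of the 5 genes in the pooled list and in replicate 1, and 1 of the 2 that stood among the 1500 highest regions of both replicates. The pooled summit lay 19 bp inside the annotated start, in the 5′ untranslated region, 94 bp before the start codon. The replicate summits lay 27 bp inside the start in replicate 1 and 7 bp upstream of it in replicate 2, or 34 bp apart. The start of the piRNA gene 21ur-12279 was 89 bp from the pooled summit. In replicate 2 a second region of signal 33 (rank 2007) overlapped the first, with its summit 198 bp inside the gene.

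atp-2 (WBGene00000229, chromosome III, 5228417 to 5230536, + strand) encodes the beta subunit, which holds the catalytic sites. Its signal was 17.2 in replicate 1 (rank 3366) and 66.3 in replicate 2 (rank 510), and 84.1 in the pooled and reproducible lists (rank 764). In replicate 2 it was the highest of the 5 genes, and in replicate 1 it fell outside the 1500 highest regions. The pooled summit was 259 bp upstream of the annotated start and 270 bp upstream of the start codon, in the gap between genes. The replicate summits lay 189 bp upstream in replicate 1 and 287 bp upstream in replicate 2, which is 98 bp apart. A lower pooled region of signal 16.3 (rank 25067) had its summit nearer the gene, 58 bp upstream of the start.

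Among the genes of the peripheral stalk, atp-3 (WBGene00000230, chromosome I, 5428533 to 5429908, - strand) encodes OSCP, which joins the stalk to the head. Its signal was 15.3 in replicate 1 (rank 4459) and 59.3 in replicate 2 (rank 633), and 76.6 in the pooled and reproducible lists (rank 925). Like atp-2 it was high in replicate 2 and outside the 1500 highest of replicate 1. The summits of the replicates were nevertheless only 17 bp apart, at 3 bp and 20 bp upstream of the annotated start. The pooled summit was 17 bp inside the start, in the 5′ untranslated region of the longest transcripts. The annotation gives atp-3 4 transcript starts. Counted from the most downstream of them, which follows an AG, the same summit lay 268 bp upstream, a distance like those of atp-2 and atp-5.

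atp-5 (WBGene00007385, chromosome V, 11122901 to 11123867, - strand) encodes subunit d of the stalk. Its signal was 26.3 in replicate 1 (rank 1290) and 42.9 in replicate 2 (rank 1212), and 67.3 in the pooled and reproducible lists (rank 1172). It was the lowest of the 4 genes in the reproducible list, and among the 1500 highest regions in both replicates. The pooled summit was 251 bp upstream of the start, and the replicate summits were 271 bp upstream in replicate 1 and 242 bp upstream in replicate 2.

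atp-4 (WBGene00020275, chromosome V, 6426246 to 6427112, - strand) encodes coupling factor 6, also of the stalk. Its signal was 20.6 in replicate 1 (rank 2209), 10.6 in replicate 2 (rank 22873) and 24.6 in the pooled list (rank 9504). The pooled and replicate 1 summits lay 259 and 279 bp inside the gene, in an intron. The replicate 2 summit lay 322 bp upstream of the start, in the 3′ untranslated region of the neighbouring gene alh-4. The replicate summits were 601 bp apart and the regions did not overlap, while the leading regions of the other 4 genes overlapped between replicates over 68.5% to 97.2% of their length. The pooled signal of atp-4 equals the median of 24.6 over protein-coding genes with any pooled region.

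**Figure D1:**
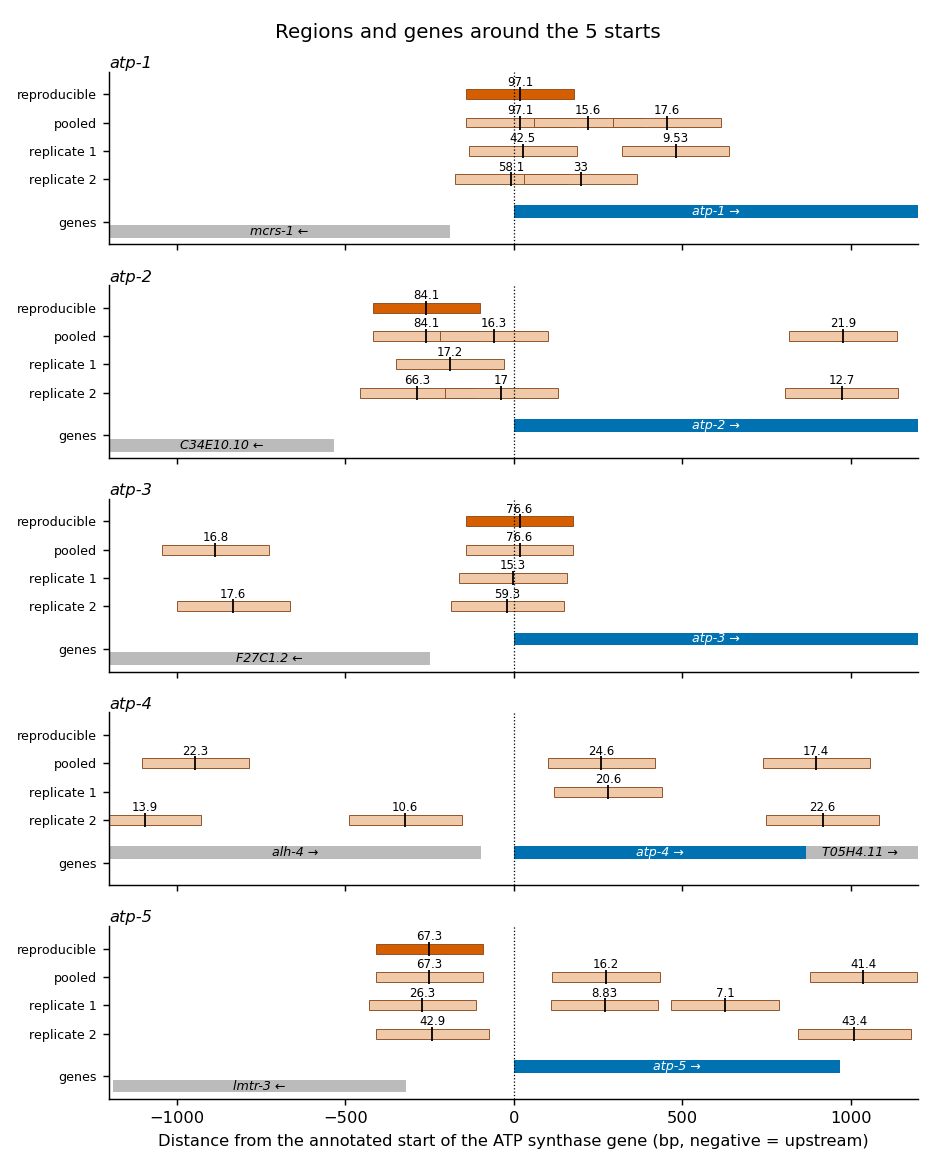
Regions of each list around the 5 annotated starts, plotted by distance from the start in bp on the strand of the gene. Boxes are regions, ticks are summits, numbers are the signal in that list, and blue and grey bars are protein-coding genes with their direction (the short gene C34E10.12, inside C34E10.10, is not drawn). atp-1, atp-2, atp-3 and atp-5 have a reproducible region between or over the starts of a divergent pair, and atp-4 has none.

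The replicates gave these genes different places. Among the 1500 highest regions of replicate 1 were those of 2 of the 5 genes, atp-1 and atp-5, against 3.87% of all protein-coding genes. Among the 1500 highest of replicate 2 were 4 of the 5, against 4.24% of all. Over the whole lists every one of the 5 had a region in replicate 1 (35.8% of all protein-coding genes) and in replicate 2 (34.8%). The reproducible list held 571 nuclear regions with a protein-coding start and no tRNA, snRNA or snoRNA start within 500 bp, and by signal the regions of atp-1, atp-2, atp-3 and atp-5 were 158th, 225th, 298th and 415th of them. Of these 571, 55.9% were among the 1500 highest in both replicates, 144 in replicate 2 only and 89 in replicate 1 only. The regions of atp-2 and atp-3 belong to the 144, and 9.63% and 6.65% of the 571 had a lower place in replicate 1 than these.

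**Figure D2:**
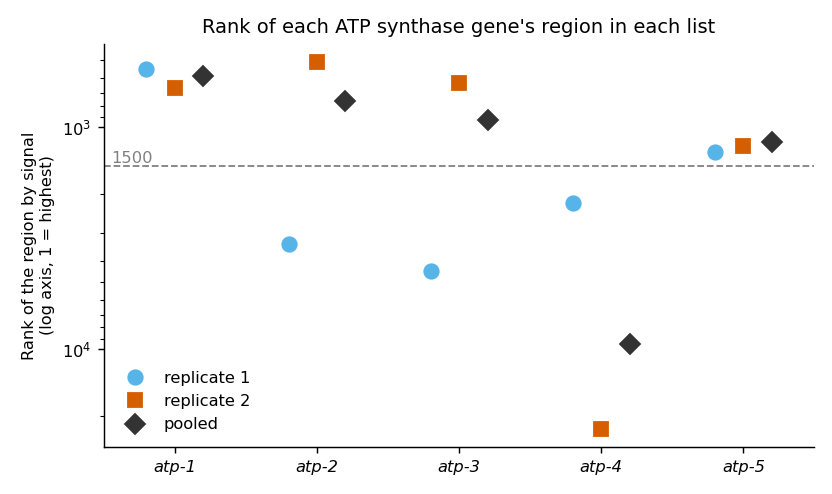
Rank of the highest region within 500 bp of each start (log axis, 1 = highest signal) in replicate 1, replicate 2 and the pooled list, with a dashed line at 1500. atp-1 and atp-5 lie above the line in all 3 lists, atp-2 and atp-3 fall below it in replicate 1 only, and atp-4 lies below it throughout.

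**Figure D3:**
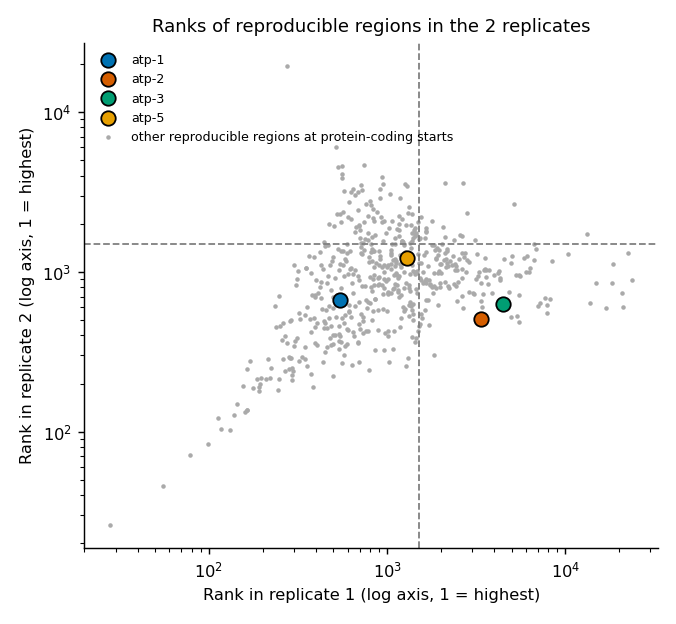
Rank in replicate 1 against rank in replicate 2 (log axes) of the reproducible regions at protein-coding starts, each given its highest overlapping region, with dashed lines at 1500. The large points are atp-1, atp-2, atp-3 and atp-5, and atp-2 and atp-3 sit at the right, at ranks 3366 and 4459 in replicate 1.

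The distance from start to summit differed among the genes. The summits of atp-1 and atp-3, whose annotated starts do not follow an AG, lay within 19 bp of the start. For atp-3 this rests on the start in the Ensembl annotation: RefSeq sets it 89 bp farther inside the gene, and the summit is then at -72 bp, upstream of it. The summits of atp-2 and atp-5, whose starts follow an AG, lay 259 and 251 bp upstream. Of all protein-coding starts 27.6% directly follow an AG, and 22.1% follow CAG. Across protein-coding genes with a reproducible region, the summit lay a median of 218 bp upstream for the 397 whose start follows AG, and a median of 150 bp upstream for the other 453. The 453, like the counts over all protein-coding genes, include genes of the mitochondrial genome, such as COX3, ND1 and ND6. Measured from the most upstream annotated start codon instead, the medians for starts with and without AG were 236 and 253 bp upstream. The summits of atp-1, atp-2, atp-3 and atp-5 then lay 94, 270, 85 and 253 bp upstream. The distances of atp-1 and atp-3 were thus below the lower quartile of their group, which was 137 bp, and those of atp-2 and atp-5 were within the quartiles of theirs, 171 and 330 bp. For atp-3 this codon lies 102 bp inside the start, and the most downstream transcript starts after it, 285 bp inside. That transcript cannot use this codon, and the summit lay 268 bp upstream of its start. Genes whose start follows AG also had a reproducible region more often, 7.21% against 3.13% of the rest. What these differences rest on was not tested.

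**Figure D4:**
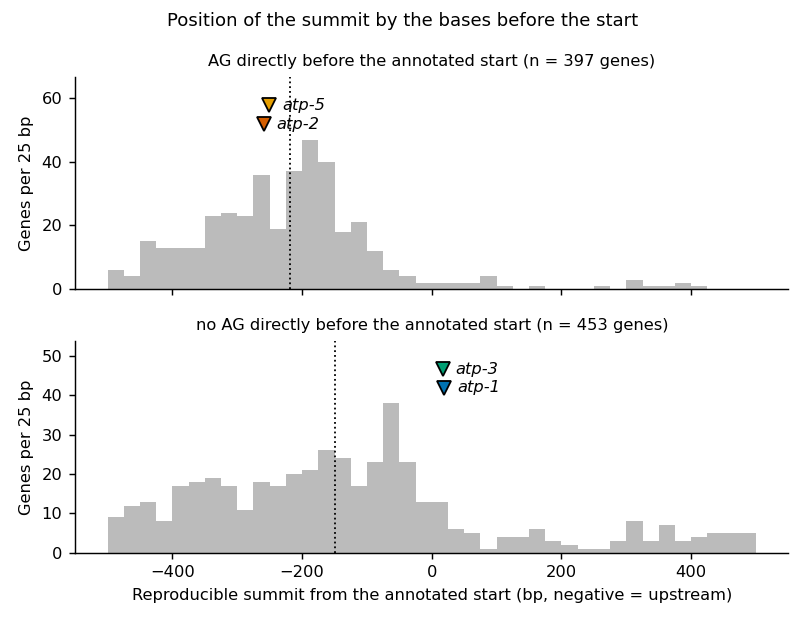
Distance of the reproducible summit from the annotated start (bp, negative = upstream) in genes whose start follows AG (top) and in the others (bottom), as genes per 25 bp. Dotted lines are the medians, 218 and 150 bp upstream, and triangles mark atp-2 and atp-5 (top) and atp-1 and atp-3 (bottom).

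All 4 genes with a reproducible region lie head to head with a neighbour that is read the other way, and the same region was also within 500 bp of that neighbour's start. atp-1 faces mcrs-1, a homologue of human microspherule protein 1, across 189 bp, and the summit was 209 bp from the mcrs-1 start. atp-2 faces C34E10.10, which RefSeq names a homologue of the rRNA processing protein UTP23, across 532 bp. The summit lay almost midway, 274 bp from the start of C34E10.10 and 277 bp from that of C34E10.12, a CHCH domain gene inside it. atp-3 faces F27C1.2, named a copper transport protein, across 248 bp, with the summit 266 bp from its start. The noncoding RNA genes F27C1.17 and F27C1.16 start 41 and 163 bp from the same summit. atp-5 faces lmtr-3, a gene of the Ragulator complex, across 318 bp. Here the summit was 68 bp from the lmtr-3 start and so nearer to it than to atp-5. RefSeq sets the lmtr-3 start 117 bp farther away, and the summit is then still nearer to lmtr-3. Which gene of each pair a region belongs to cannot be told from the lists.

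atp-4 is placed differently, 95 bp behind the end of alh-4, an aldehyde dehydrogenase gene read in the same direction. alh-4 itself had no reproducible region within 500 bp of its start, and its highest pooled region there had a signal of 17.4, with the summit 421 bp inside the gene. A pooled region of signal 24.4 lay farther out, 991 bp upstream of the alh-4 start.

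Divergent neighbours are common among genes in the reproducible list. Of 3435 protein-coding genes with a divergent neighbour within 1000 bp, 12.2% had a reproducible region, against 3.92% of the 5558 with a neighbour in tandem and 1.73% of the 9598 with none that close. In 375 of the 420 divergent genes counted, or 89.3%, it was the same region as the neighbour's, so that the pair was counted as 2 genes. Among the 1489 divergent genes with a gap from 189 to 532 bp, the range of the 4 genes described here, the share was 15.1%. The 4 of 5 described here stand beside these shares as well as beside the share over all genes.

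Of 12 other nuclear ATP synthase genes 2 had a reproducible region, or 16.7% (exact 95% interval for counting error 2.09% to 48.4%), beside 4.25% of all protein-coding genes and 12.2% of those with a divergent neighbour. The interval holds both of these shares, so the 16.7% cannot be told from either. Together with the 5 genes above, 6 of all 17 had one. Y82E9BR.3, for the c subunit of the ring, had a signal of 16.9 in replicate 1 (rank 3515), 46.4 in replicate 2 (rank 1031) and 73.7 pooled (rank 1001), with the pooled summit 260 bp upstream of a start that follows AG. R04F11.2, for subunit e, had 19.8 in replicate 1 (rank 2410), 44.7 in replicate 2 (rank 1119) and 62.1 pooled (rank 1365), with the pooled summit 40 bp upstream. Both were thus outside the 1500 highest of replicate 1 and inside those of replicate 2, as atp-2 and atp-3 were.

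Just below the reproducible list were Y69A2AR.18, for the gamma subunit, with a pooled signal of 55.6 (rank 1656), and asb-1, for subunit b, with 54.4 (rank 1722). The lowest member inside it was R04F11.2. Lower pooled signals were found for hpo-18 (epsilon subunit, 41), F58F12.1 (delta subunit, 32.7), R53.4 (putative subunit f, 31.5), asg-1 (subunit g, 28.2) and asb-2 (subunit b, 24.8). The pooled summit counted for asb-1 lay in the 3′ untranslated region of the neighbouring gene sel-2. That counted for hpo-18 lay 468 bp past its start, beyond the end of this gene of 337 bp, in a coding exon of figl-1. asg-2, another subunit g gene, and the ATPase inhibitor genes mai-1 and mai-2 had no pooled region within 500 bp. In the pooled list the paralogs asb-1 and asb-2 thus stood at 54.4 and 24.8, and asg-1 and asg-2 at 28.2 and none. The replicates differed at these genes. In replicate 1 and replicate 2, asb-1 ranked 6184th and 1791st, asb-2 17895th and 4496th, and asg-1 27254th and 2135th. Within 500 bp, asg-2 (10.6) and mai-1 (20.3) had a region in replicate 2 only. hpo-18, R53.4 and Y69A2AR.18 likewise had none there in replicate 1. The summits of atp-1 to atp-5 and of all named ATP synthase genes with a pooled region lay in sequence where every 36-base word within 150 bp of the summit occurs once in the genome.

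One subunit, ATP6, the membrane subunit beside the ring, is encoded by the mitochondrial genome. A region overlapped ATP6 in every list, with a signal of 229 in replicate 1 (rank 103), 303 in replicate 2 (rank 102) and 472 pooled and reproducible (rank 107). The mitochondrial genome held 27 reproducible regions in all, so ATP6 was one of many places along it. Mitochondrial DNA is present in many copies per cell, and the part of copy number in these signals was not tested.

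Other genes of oxidative phosphorylation and its carriers were taken from short lists of the respiratory complexes. These lists were fixed by name and do not hold every subunit, so the shares below are of the listed genes only. With the 12 remaining ATP synthase genes they numbered 53, and 8 of these, or 15.1%, had a reproducible region, beside 4.25% of all protein-coding genes. Of the 53, 26 had a divergent neighbour within 1000 bp, and 12.2% of all such protein-coding genes had a reproducible region. The other 53 include 16 with a neighbour in tandem, so the divergent share is not a background for the whole list. The exact 95% interval for the 53, for counting error only, is from 6.75% to 27.6%. It is no test against either share, because the lists were chosen with earlier results of these data known. In complex I, which oxidises NADH, it was 1 of the 14 listed, nuo-1 with a signal of 64.6, a share of 7.14%. This share does not stand for complex I as a whole. The genes ndua-1, ndua-8, ndua-13, ndub-5 and ndub-8, of complex I by name, are not in the list and also had a reproducible region. In complex II, succinate dehydrogenase, 0 of 5 listed genes had one, with an exact 95% interval up to 52.2%, though all 5 had a pooled region. In complex III, which passes electrons to cytochrome c, it was 2 of 9, ucr-11 with 74.9 and ucr-1 with 61.7. In complex IV, cytochrome c oxidase, it was 2 of 7, cox-5A with 339 and cox-5B with 164. Of the genes for cytochrome c and the ADP/ATP carriers it was 1 of 6, cyc-2.1 with 98.4.

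Of the listed genes with a reproducible region, cox-5A, cox-5B and cyc-2.1 had a higher signal than atp-1, and the others a lower one. The region of cox-5A was also narrower than the rest, 135 bp wide where the regions of the ATP synthase genes were 320 bp. Genes of the vacuolar ATPase, a proton pump of related build that runs in reverse on acidic organelles, had a reproducible region in 1 of 21 cases, vha-18 with 90.4. That share of 4.76% is near the background of all protein-coding genes. At the vha-18 summit 88% of the 36-base words within 150 bp occur once in the genome, against 100% at the ATP synthase genes. In the pooled list the shares were 69.8% of the 53 genes and 76.2% of the vacuolar ATPase genes, so both sets were above the background there. With so few genes per complex the shares are imprecise: the exact 95% interval, for counting error only, ran from 6.75% to 27.6% for the 53 genes and from 0.12% to 23.8% for the vacuolar ATPase.

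**Figure D5:**
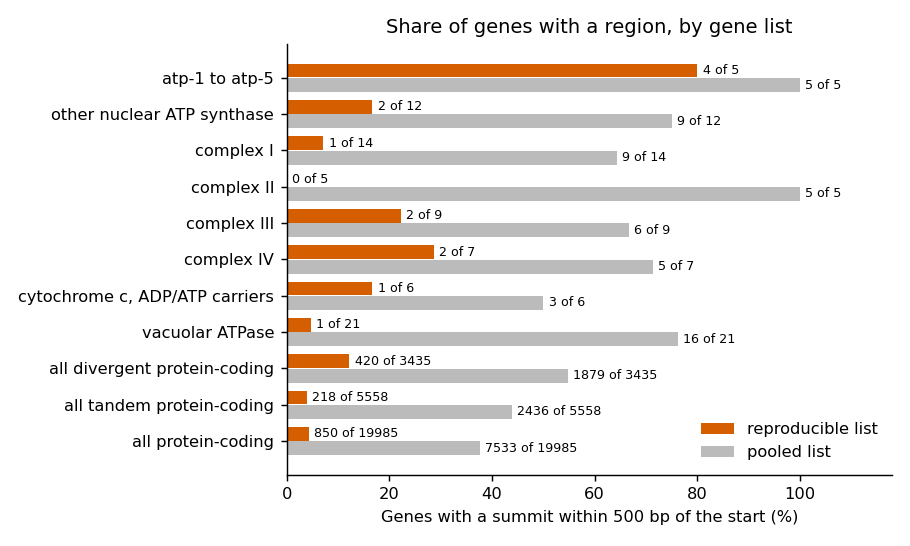
Percent of genes with a summit within 500 bp of the start, by gene list, in the reproducible list (orange) and the pooled list (grey), with counts at the bars. atp-1 to atp-5 stand at 4 of 5 and 5 of 5, the lists of other ATP synthase, respiratory and vacuolar ATPase genes hold 0 to 2 genes each in the reproducible list, and all protein-coding genes stand at 4.25% and 37.7%.

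Regions with a tRNA, snRNA or snoRNA start within 500 bp had a median signal of 103 in the reproducible list, against 77.5 for the 571 regions at protein-coding starts. The sequence at SL2 and snoRNA starts was set beside that of the ATP synthase genes. The 10 words of 8 bases that most set apart the summit windows near SL2 or snoRNA starts from their flanks were searched on both strands in the window of 50 bp on each side of each summit. Any of the 10 was present in 38.3% of those windows, from which they were chosen, and in 20.8% of all 1473 nuclear reproducible windows. At atp-1 to atp-5 there was 1 match, CGGGTTCC at atp-5, on the other strand from the gene and overlapping no other match. It was found in 90 of the 1473 reproducible windows. None of the 10 words was in the windows at atp-1, atp-2, atp-3 and atp-4.

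The word CTGTTTCA, searched in the same windows, was in none of the 5, and in 0.204% of reproducible windows. It was in the 300 bp upstream of the atp-2 start, as in 2.47% of such upstream windows of all protein-coding genes, and its letters stand near the end of the atp-2 sequence above. TATAAA was in the summit window of atp-4 and of none of the other 4, and in 9.3% of reproducible windows. In the 300 bp upstream of the start it was found at atp-2, atp-3, atp-4 and atp-5, as at 39.6% of all protein-coding genes, and it is part of the atp-4 gap shown above. CTGCGTC was at none of atp-1 to atp-5, and in 4.34% of reproducible windows. Its letters do stand in the Y82E9BR.3 sequence above, across the end of the capitals.

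The 14 bases shared by atp-2 and Y82E9BR.3, GCGAGACCCGCTGC, were found after the windows had been looked at. They start 14 bp downstream of the summit at atp-2, 245 bp before its start, and 55 bp upstream of the summit at Y82E9BR.3, 315 bp before its start. They occur at 2 places in the genome, counting both strands, and these are the ones. Among the 15 pairs of the 6 nuclear ATP synthase windows, each of 121 bases, the longest run shared by any other pair was 9 bases. Over all pairs of the 571 windows at protein-coding starts, 0.533% shared a run of 14 bases or more that were identical, so such a run is uncommon but not peculiar to this pair. The share of G and C in the windows at ATP synthase genes was 54.5% at atp-1, 51.2% at atp-2, 43% at atp-3, 47.9% at atp-5, 47.1% at R04F11.2 and 58.7% at Y82E9BR.3. The median of the 571 windows was 42.1%, with quartiles of 37.2% and 47.9%, so the windows of all 6 were above the median, and those of atp-1, atp-2 and Y82E9BR.3 above the upper quartile.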

How the data were processed

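The authors deposited peak lists, and the value used per region is a score, the signal of the list's seventh column, whose scale is not stated in the labels or headers. Per the text files deposited with the lists, the authors called regions, at most 30000 per list, for the single replicates and for both pooled, using a control, and kept a reproducible set by the irreproducible discovery rate. What aligner and peak caller were used is not given in the sources used here. Lists on ce11 were used, and those on ce10 were not. Total reads are not in the lists, so depth is unknown.

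Summits, 1-based, were matched to gene 5′ ends of Ensembl release 115 (WBcel235). Sequence and ATP6 came from the matching RefSeq assembly. Ranks count regions of higher signal in the same list. Python 3.11.15, pandas 2.3.3 and SciPy 1.17.1 were used. Words were chosen by Fisher's exact test against flanks 1000 bp away, a step tested on simulated data. Genes named are the 5 genes, all ATP synthase genes, genes starting within 500 bp of their summits, and list members with a reproducible region. Outside this rule, alh-4, mcm-7 and lelo-2 were named after the values were seen, as neighbours of atp-4, hpo-18 and Y82E9BR.3. So were sel-2 and figl-1, in which the summits counted for asb-1 and hpo-18 lie. The complex I genes ndua-1, ndua-8, ndua-13, ndub-5 and ndub-8, outside the lists, were also named afterwards. The genes and lists were chosen with earlier results of these data known. With 1 group, no test between samples was possible.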

Additional observations from a re-analysis of the deposited data

How the results depend on the processing

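The count of 4 of 5 genes with a reproducible region was kept by 1000 bp windows, against 1156 of all protein-coding genes (5.78%). It was also kept by the middle of the region (849 of all), any overlap (952) and any transcript start (905). The first start codon, chosen after seeing the data, kept it too (819). With each region given only to its nearest protein-coding start, also chosen afterwards, it was 3, since the region of atp-5 went to lmtr-3. Of all protein-coding genes 654 (3.27%) were then counted. With 200 bp windows it was 2, against 392 of all protein-coding genes and 5 of the 53 others of oxidative phosphorylation. In the pooled list 3 of the 5 genes had a region at 200 bp, and the share over all genes was not counted there. With the 750 highest regions the reproducible count was 1 (atp-1), against 361 and 3. With the 1500 highest regions of 1 replicate alone it ranged from 2 (without replicate 2) to 4 (without replicate 1), against 773 to 847 of all protein-coding genes, 4 to 8 of the 53 others, and 5 in both whole lists for any region. Regions of 4 genes overlapped between replicates by at least 1 bp, and by 50% of both. The nearest summit in place of the highest changed only atp-2, to 16.3. The unknown depth limits what the absence of a region at atp-4 can show.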

Other observations

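Of the other ATP synthase genes, 3 had a reproducible region with its summit between 500 and 1000 bp from the start, which the counts leave out. hpo-18, for the epsilon subunit, had a region of signal 71.7 (rank 1047) with the summit 583 bp upstream, toward the divergent gene mcm-7, 740 bp away. R53.4 had one of 65.1 (rank 1256) with the summit 893 bp inside of its start, past the end of the gene. Y82E9BR.3 had a second one of 117 (rank 422), higher than the region at its start, with the summit 665 bp inside, in its 3′ untranslated region and that of lelo-2. mai-2 had no reproducible region there and a pooled one of 40.9 (rank 2960) with the summit 533 bp upstream. These were noticed after the values were seen.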
